A study of Mus musculus with 2 samples.

Results

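The cytosolic ribosomal protein genes were described in embryonic mouse telencephalon with a conditional knockout of the histone variant H2A.Z, set against tissue with the floxed gene. Members were taken by symbol alone, without use of any measured value: every gene of the deposited table whose symbol begins with Rpl or Rps and a digit, together with Rplp0, Rplp1, Rplp2 and Rpsa, leaving out the Rps6k kinases, Rps19bp1 and pseudogenes named with -ps. The rule gave 85 of 19202 genes. Of these, 51 carry large subunit symbols, 32 carry small subunit symbols, and Rps3a3 and Rps4l were kept and marked as retrocopies, that is, copies of an mRNA inserted back into the genome. The 46 large subunit and 31 small subunit genes that encode the standard set were all present. GENCODE M21 calls 81 of the 85 protein-coding, and lists Rps3a3, Rps4l, Rpl6l and Rpl37rt as processed pseudogenes. Paralogs Rpl3l, Rpl10l, Rpl26l1, Rpl39l and Rps27rt were not analysed here.

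The ribosome is built from a small subunit, which reads the mRNA, and a large subunit, which joins the amino acids. Most of its proteins are present in a single copy per ribosome, so their genes are made at similar levels in nearly every cell. Their mRNAs typically begin with a run of pyrimidines at the 5′ end, the TOP motif, through which mTOR signalling adjusts their translation. The forebrain of the mid-gestation embryo consists largely of dividing progenitors and young neurons, both of which make many ribosomes, and in humans and mice reduced dosage of some ribosomal proteins leads to anaemia or to skeletal and pigment defects.

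The tissue was telencephalon of C57BL/6 embryos at embryonic day 12 (E12). The H2AZ cKO group carried a conditional deletion of the gene for the histone variant H2A.Z, and the control group carried the floxed allele, H2AZfl/fl. The Cre driver, the deleted exons and the number of embryos were not stated in the labels, and the protocol speaks of cerebral cortex where the tissue label says telencephalic. The series text speaks of triplicates, whereas the table analysed holds 1 column of read counts per genotype, so no difference below has a replicate check. Whether a column pools several libraries is unknown, and each column is called a library below.

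Read counts totalled 8839840 in the H2AZ cKO library, against 8891198 in the control library. H2afz, the targeted gene, had 1664 counts in the H2AZ cKO library, against 2605 in the control library, a ratio of 0.661 (95% interval 0.621 to 0.703). All 10 telencephalic markers were detected in both libraries, and 8 had a log2 ratio above 0. All 9 tested hypothalamic and diencephalic markers lay below 0, with a median log2 ratio of -1.47. The libraries also differed in sex-linked transcripts: Xist, expressed from the inactive X chromosome, had 6384 counts in the H2AZ cKO library, against 200 in the control library, and the Y-linked gene Kdm5d had 5 counts in the H2AZ cKO library, against 647 in the control library. Erythroid markers summed to 695.8 CPM (counts scaled to a common library total) in the H2AZ cKO library, against 368.8 CPM in the control library, and 9 of the 10 tested were at least 1.2-fold higher. Macrophage markers summed to 613 counts in the H2AZ cKO library, against 475 in the control library, and 12 of the 13 tested lay above 0. Of these lists, 11 of 12 erythroid and all 14 macrophage markers were found in the table, each with at least 1 count in both libraries. The part of sex, erythroid cells or macrophages in the results below was not tested.

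Nearly all cytosolic ribosomal protein genes had more counts in the H2AZ cKO, each by a small amount. Together they took 3.12% of all counts in the H2AZ cKO library (95% interval 3.10% to 3.13%), against 2.74% in the control library (2.73% to 2.76%). After TMM scaling, which sets the libraries to a common level from the bulk of the genes, their summed counts stood at a ratio of 1.17 (95% interval 1.16 to 1.17). On this scale the summed counts of all other genes stood at a ratio of 1.02, so 1 is not the exact reference for this sum. All intervals here are exact Clopper-Pearson intervals from the counts and cover counting error only. In bulk tissue, a different number of cells of some type and a different amount of RNA per cell cannot be told apart.

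The log2 ratio of a gene was taken as H2AZ cKO over floxed control on CPM plus 1, and a gene was tested where its higher library reached 1 CPM. That floor left 84 of the 85 members and 14586 genes in all; Rpl6l, with 4 counts in the H2AZ cKO library, against 3 in the control library, fell below it. The median log2 ratio of the members was 0.22, with the middle 50% between 0.14 and 0.28, and the median over all tested genes was 0.01. A log2 ratio above 0 was found in 80 of 84 members, against 51% of all tested genes. The remaining 4 were Rpl27, Rpl37rt, Rps27 and Rps3a1. Under total-count scaling, Rpl21 and Rpl36a also lay below 0, which left 78 of 84 above it.

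By size, 24 members were at least 1.2-fold higher, 28.6% of those tested, where 11.4% of all tested genes were. At least 1.2-fold lower was only Rpl37rt, a pseudogene with 8 counts in the H2AZ cKO library, against 14 in the control library, where 13.4% of all genes were. At least 1.5-fold higher was only the retrocopy Rps3a3 (1.92% of all genes), and no member was at least 1.5-fold lower (3.03% of all genes). The counting interval lay wholly above 1 for 67 members, or 79.8%, where 12.6% of all genes had such an interval, and wholly below 1 for Rps27 and Rps3a1 (11.2% of all genes). The intervals of these abundant genes are narrow, so this share also reflects their depth.

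The difference was shared in part by other short and abundant genes. Among genes outside the family, the median log2 ratio was 0.08 for the 859 with a transcript of at most 800 nt and 0.10 for the 1941 between 800 and 1500 nt, but -0.11 for the 1545 above 6000 nt. The 942 other genes above 200 CPM had a median of 0.06, and 4.25% of them were at least 1.2-fold higher. Combining both properties, the 318 other genes of at most 1500 nt and above 100 CPM had a median of 0.15, with 89.3% above 0 and 15.7% at least 1.2-fold higher; this class was drawn after the members' values were seen. After removal of a joint trend with transcript length, GC content and level, the members' median log2 ratio was 0.081, and 67 of 84 lay above 0, where 50.5% of all genes did. At least 1.2-fold higher were then 5 of 84 members, Rpl23a, Rps21, Rps19, Rps29 and Rps3a3, where 10.9% of all genes were. That share over all genes is not matched for level. Before removal of the trend, 21.8% of other genes of at most 10 CPM were this much higher, against 4.25% of those above 200 CPM. What made short transcripts higher in this library was not tested.

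**Figure D1:**
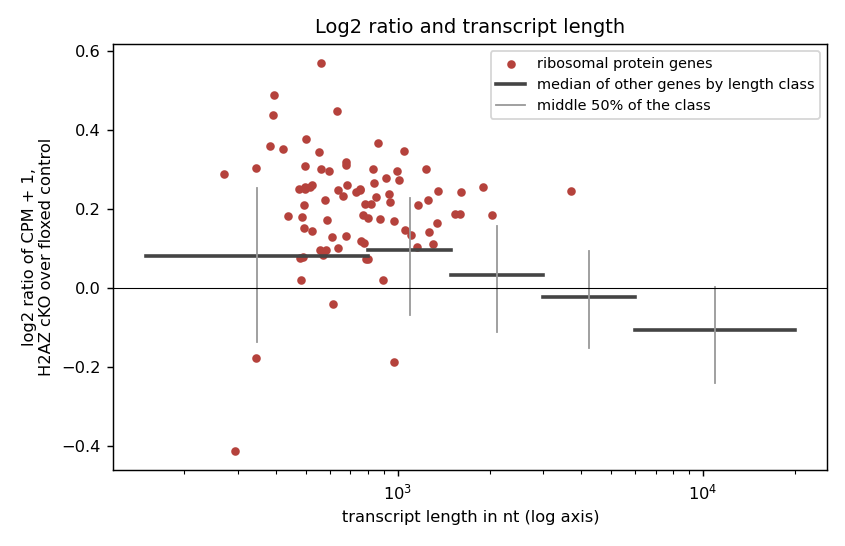
Log2 ratio of CPM plus 1, H2AZ cKO over floxed control, of each tested ribosomal protein gene except Rps3a3 (points) against transcript length in nt on a log axis, with the median (thick bars) and middle 50% (thin bars) of all other tested genes in 5 length classes. The medians of the other genes run from 0.08 in the shortest class to -0.11 in the longest, and most ribosomal protein genes lie above the median of their length class.

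**Figure D2:**
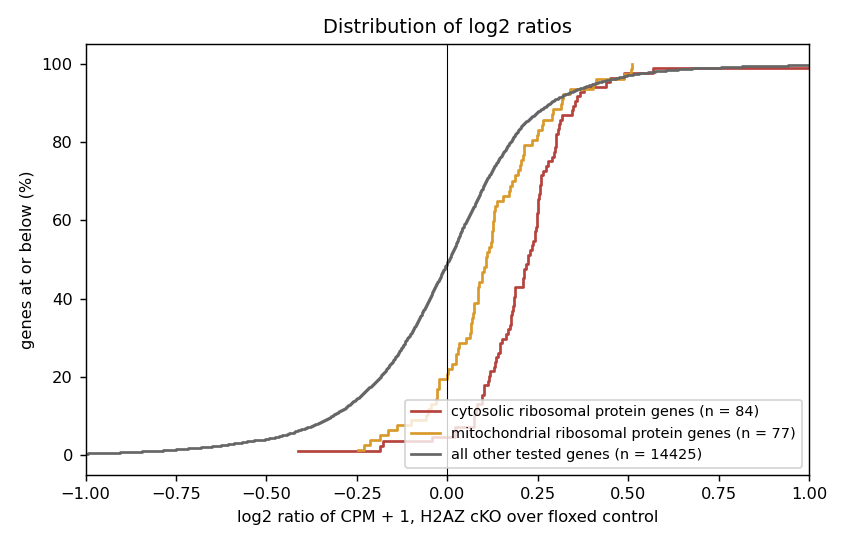
Cumulative share of genes (in percent) by log2 ratio of CPM plus 1, H2AZ cKO over floxed control, for 84 cytosolic ribosomal protein genes, 77 mitochondrial ribosomal protein genes and 14425 other tested genes. The curve of the cytosolic genes is displaced to the right and steep, with 4 of 84 genes below 0, and Rps3a3 at 5.09 lies beyond the axis.

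Both subunits had the same direction. The 50 tested large subunit genes had a median log2 ratio of 0.20, with 48 above 0, 14 at least 1.2-fold higher and a summed ratio of 1.16 (95% interval 1.15 to 1.17). The 32 small subunit genes had a median of 0.24, with 30 above 0, 9 at least 1.2-fold higher and a summed ratio of 1.17 (1.16 to 1.18). The difference between the subunits is small beside the spread of genes within each. In the standard set, log2 ratios ran from -0.04 to 0.57 in the large and from -0.19 to 0.49 in the small subunit. The medians of that set were 0.21 and 0.24. Over all large subunit symbols the lowest value was -0.41, that of the pseudogene Rpl37rt.

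**Figure D3:**
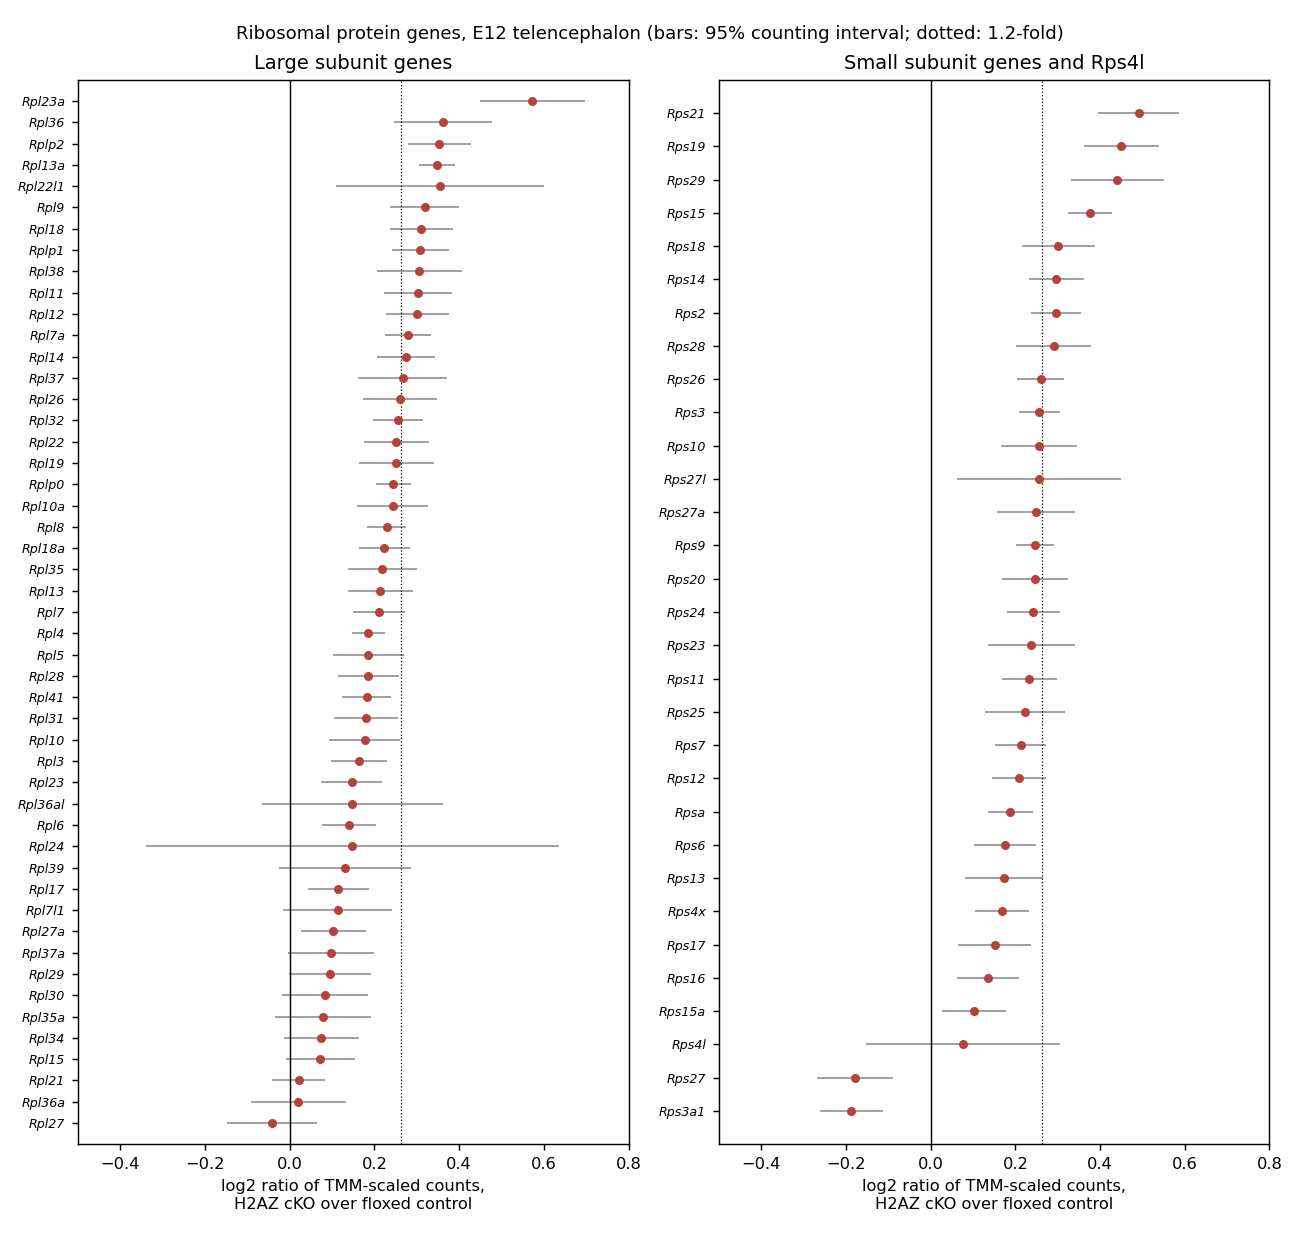
Log2 ratio of TMM-scaled counts, H2AZ cKO over floxed control, with its 95% counting interval for large subunit genes (left) and small subunit genes with Rps4l (right); the dotted line marks 1.2-fold. Most points lie right of 0, Rpl23a and Rps21 lie farthest right, and Rps27 and Rps3a1 have intervals wholly left of 0. Not every gene is drawn; Rps3a3, Rpl37rt and Rpl6l are among those left out.

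In the large subunit, Rpl23a stood highest. This protein sits at the mouth of the tunnel through which the new peptide leaves, and its gene had 1310 counts in the H2AZ cKO library, against 911 in the control library, a ratio of 1.49 (95% interval 1.37 to 1.62). Its gene overlaps an exon of Tlcd1 on the other strand and hosts a small nucleolar RNA, and the sources do not say whether counting used strand. The next tunnel genes by ratio were closer to the family median. Rpl26 had 2311 counts in the H2AZ cKO library, against 1995 in the control library (1.198, 1.13 to 1.27). Rpl22 had 2930 counts in the H2AZ cKO library, against 2546 in the control library (1.19, 1.13 to 1.26). The same ratio was found for Rpl19, with 2258 counts in the H2AZ cKO library, against 1962 in the control library. All 10 genes of the tunnel list lay above 0, with a median of 0.20, close to the 0.20 of the large subunit as a whole. Rpl36, a small protein of the large subunit, had 1381 counts in the H2AZ cKO library, against 1112 in the control library (1.28, 1.19 to 1.39).

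The stalk of the large subunit, which recruits elongation factors, was higher in each of its 4 genes. Rplp2, an acidic stalk protein, had 3345 counts in the H2AZ cKO library, against 2709 in the control library, a ratio of 1.28 (1.21 to 1.34). Its partner Rplp1 had 3879 counts in the H2AZ cKO library, against 3241 in the control library (1.24, 1.18 to 1.30). Rpl12, at the base of the stalk, had 3151 counts in the H2AZ cKO library, against 2645 in the control library (1.23, 1.17 to 1.30). Rplp0, which anchors the acidic proteins, had 10246 counts in the H2AZ cKO library, against 8947 in the control library (1.18, 1.15 to 1.22). The median of the 4 log2 ratios was 0.30, against 0.20 for the large subunit as a whole. All 4 intervals lay above 1, as did those of 36 of the 50 tested large subunit genes.

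Rpl5 and Rpl11 join the 5S RNA and, when ribosome assembly fails, bind the p53 regulator Mdm2. Rpl11 had 2817 counts in the H2AZ cKO library, against 2363 in the control library, a ratio of 1.23 (1.17 to 1.30). Rpl5 had 2454 counts in the H2AZ cKO library, against 2232 in the control library, a lower ratio of 1.14 (1.07 to 1.21). The intervals of these partners overlap. The other large subunit genes at least 1.2-fold higher were Rpl7a, Rpl9, Rpl13a, Rpl14, Rpl18, Rpl37, Rpl38 and the paralog Rpl22l1.

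At the low end of the large subunit were genes with nearly equal counts. Rpl27 had 1392 counts in the H2AZ cKO library, against 1483 in the control library (0.971, 0.902 to 1.05). Rpl21 had 4004 counts in the H2AZ cKO library, against 4083 in the control library (1.01, 0.971 to 1.06), and shares 50-base windows with 81 other annotated genes. Rpl15 had 2475 counts in the H2AZ cKO library, against 2435 in the control library (1.05, 0.994 to 1.11). Rpl34 had 2132 counts in the H2AZ cKO library, against 2094 in the control library (1.05, 0.991 to 1.12). The interval of each of these 4 genes includes 1, and none reaches the family's summed ratio of 1.17.

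In the small subunit, Rps21 stood highest, with 2102 counts in the H2AZ cKO library, against 1547 in the control library, a ratio of 1.41 (1.32 to 1.502). Rps19, the gene most often mutated in Diamond-Blackfan anaemia in humans, had 2396 counts in the H2AZ cKO library, against 1814 in the control library (1.37, 1.29 to 1.45). Rps29, a zinc-binding protein of the head, had 1569 counts in the H2AZ cKO library, against 1196 in the control library (1.36, 1.26 to 1.46). These 3 intervals overlap each other and lie above the family's summed ratio. Rps15, needed for export of the precursor of the small subunit from the nucleus, had 6671 counts in the H2AZ cKO library, against 5315 in the control library (1.30, 1.25 to 1.35). Rps2, Rps14, Rps18 and Rps28 were also at least 1.2-fold higher.

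All 13 listed genes of the head of the small subunit had intervals above 1, as did 30 of all 32 small subunit genes. The head genes had a median log2 ratio of 0.25, against 0.24 for the small subunit as a whole. Of the 19 genes listed as mutated in Diamond-Blackfan anaemia in humans, 17 lay above 0 and 5 reached 1.2-fold, and their median of 0.22 equalled that of the family. Rpl27 and Rps27 were the exceptions in that list.

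Rps27, a zinc-finger protein of the small subunit, and Rps3a1, a protein of the platform near the mRNA exit, were the lower genes. Rps27 had 1896 counts in the H2AZ cKO library, against 2219 in the control library, a ratio of 0.884 (0.831 to 0.940). Of its 50-base windows, 98.6% also occur in other annotated genes, the highest share in the family. Rps3a1 had 2708 counts in the H2AZ cKO library, against 3191 in the control library, a ratio of 0.878 (0.834 to 0.924). Both lie on chromosome 3, as does the targeted gene at chr3:137864487-137866922. The other standard member there, Rpl34, was also among the lowest, while the paralog Rpl22l1 on the same chromosome had a ratio of 1.28, and the 754 other tested genes of chromosome 3 had a median log2 ratio of 0.00. The chromosome was examined after these values were seen.

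Rps3a3 is the member that differed most between the libraries. It is a copy of the Rps3a1 mRNA at chr13:108670603-108671397 on the plus strand of GRCm38, in a single exon, whereas Rps3a1 lies at chr3:86137940-86142702 on the minus strand. Rps3a3 had 685 counts in the H2AZ cKO library, against 12 in the control library, a ratio of 59.1 (33.6 to 115). The 795 bases of Rps3a3 align with Rps3a1 at 98.9% identity, and both hold an open reading frame of 264 codons. The 9 differing bases, with the Rps3a1 base first and positions counted from 1 at the first base of the Rps3a3 transcript, which begins with its ATG, are T216C, T260C, C363T, A427T, T534C, G582T, A660G, C762T and G792A. Positions 208 to 427 of both are shown because 4 of these bases, in capitals, are what lets a read be assigned to either gene.
Rps3a1: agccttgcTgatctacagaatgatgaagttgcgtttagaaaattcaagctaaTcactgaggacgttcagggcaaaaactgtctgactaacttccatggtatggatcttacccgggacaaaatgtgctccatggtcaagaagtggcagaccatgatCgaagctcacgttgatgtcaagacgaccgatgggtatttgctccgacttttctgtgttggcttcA
Rps3a3: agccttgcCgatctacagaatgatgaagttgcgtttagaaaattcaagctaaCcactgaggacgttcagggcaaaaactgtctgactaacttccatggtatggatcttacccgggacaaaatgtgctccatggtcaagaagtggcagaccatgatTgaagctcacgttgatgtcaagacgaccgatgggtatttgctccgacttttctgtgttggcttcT

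A differing base falls in 376 of 746 possible 50-base windows (50.4%) and in 568 of 696 possible 100-base windows (81.6%). The treatment of multiply matching reads was not stated. Added together, Rps3a1 and Rps3a3 had 3393 counts in the H2AZ cKO library, against 3203 in the control library, a ratio of 1.10 (1.04 to 1.15), so the sum lay above 1 where Rps3a1 alone lay below it. Rps3a3 held 20.2% of the pair's counts in the H2AZ cKO library (95% interval 18.8% to 21.6%), against 0.375% in the control library (0.194% to 0.654%). From which gene the reads counted at Rps3a3 came was not tested. In the authors' deposited table, Rps3a3 had a log2 fold change of 5.84 and was the only member marked as significant, as were 0.896% of all genes. By the adjusted p-values of the authors' deposited table, 60 of the 85 members were under 0.05 with a log2 fold change above 0, where 3.57% of all genes were, and 2 were under 0.05 with one below 0, where 5.97% of all genes were. That table compares 1 column with 1 column by an unnamed test, so these values do not cover the spread between embryos.

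**Figure D4:**
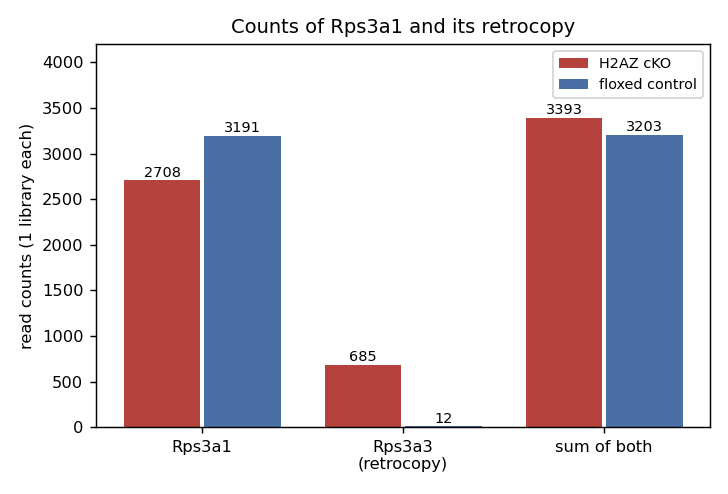
Read counts of Rps3a1, its retrocopy Rps3a3 and their sum in the H2AZ cKO library and the floxed control library, 1 column of counts each. Rps3a3 has 685 counts in the H2AZ cKO library, against 12 in the control library, Rps3a1 has 2708 in the H2AZ cKO library, against 3191 in the control library, and the sum is 3393 in the H2AZ cKO library, against 3203 in the control library.

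The second retrocopy behaved otherwise. Rps4l, a copy in which only 18% of the 50-base windows occur in other genes, had 321 counts in the H2AZ cKO library, against 315 in the control library (1.05, 0.900 to 1.24). Its X-linked parent Rps4x had 4206 counts in the H2AZ cKO library, against 3871 in the control library (1.12, 1.08 to 1.17). The interval of the copy includes the ratio of the parent.

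Near-identical pseudogene copies of members were counted in separate rows of the table. BLAST found 275 such copies, of 63 members, with at least 90% identity over at least 200 nt. Most were nearly silent, with 267 of 275 below 30 counts summed over both libraries. The highest was Gm8292, a copy of Rps24, with 704 counts in the H2AZ cKO library, against 589 in the control library (1.24, 1.11 to 1.38). Rps24 itself had 4349 counts in the H2AZ cKO library, against 3803 in the control library (1.18, 1.13 to 1.24). The other copies summed to 1097 counts in the H2AZ cKO library, against 843 in the control library (1.35, 1.23 to 1.47). The members themselves summed to 275412 counts in the H2AZ cKO library, against 244001 in the control library.

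Paralogs encode variants of a ribosomal protein. Rpl22l1 had 309 counts in the H2AZ cKO library, against 250 in the control library (1.28, 1.08 to 1.52), beside its parent Rpl22 at 1.19 (1.13 to 1.26). Rps27l had 472 counts in the H2AZ cKO library, against 409 in the control library (1.19, 1.04 to 1.37), where the ratio of its parent Rps27 was 0.884. Rpl36al had 378 counts in the H2AZ cKO library, against 353 in the control library (1.11, 0.956 to 1.28), and its parent Rpl36a had 1292 in the H2AZ cKO library, against 1318 in the control library (1.01, 0.939 to 1.10). Rpl7l1 had 1015 counts in the H2AZ cKO library, against 971 in the control library (1.08, 0.989 to 1.18), beside Rpl7 at 1.16 (1.11 to 1.21). In the pair of Rps27l and Rps27 alone, the intervals of paralog and parent do not overlap.

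The 4 X-linked members all lay below the median ratio of the family. Rpl10 had 2434 counts in the H2AZ cKO library, against 2228 in the control library (1.13, 1.07 to 1.198). Rpl39 had 693 counts in the H2AZ cKO library, against 655 in the control library (1.09, 0.982 to 1.22). With Rps4x and Rpl36a, given above, the 4 X-linked genes had a median log2 ratio of 0.15, and the 73 autosomal members of the standard set had 0.23. With 4 genes this is a description, and the sex difference of the libraries stands beside it.

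Levels per length had a similar spread in both libraries. Over the 77 standard members, the median was 449.8 CPM per kb in the H2AZ cKO library, against 376.1 CPM per kb in the control library, and 60 of the 77 lay within 2-fold of the median in each library. Across these genes the Pearson correlation of log2 CPM, not divided by length, between the libraries was 0.992. It is a description over 77 genes that share both libraries. Rpl24, the lowest of these genes with 8.72 CPM in the H2AZ cKO library and 7.87 CPM in the control library, can raise this value. Rps15 was the most abundant per length, with 1531 CPM per kb in the H2AZ cKO library, against 1179 CPM per kb in the control library. Rpl41, a very short basic protein, had 1315 CPM per kb in the H2AZ cKO library, against 1159 CPM per kb in the control library. Rps9 had 1293 CPM per kb in the H2AZ cKO library, against 1090 CPM per kb in the control library. Rpl32 and Rpl8 completed the most abundant 5, and all 5 stood higher in the H2AZ cKO. Rpl32 had 1095 CPM per kb in the H2AZ cKO library, against 917.4 CPM per kb in the control library. Rpl8 had 1082 CPM per kb in the H2AZ cKO library, against 923.1 CPM per kb in the control library.

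**Figure D5:**
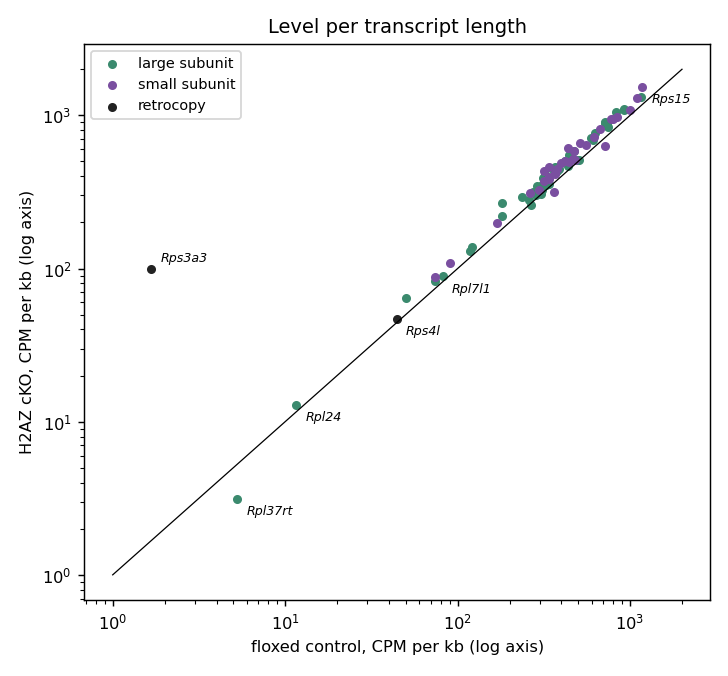
Level of the 84 tested members in CPM per kb of transcript, H2AZ cKO (vertical, log axis) against floxed control (horizontal, log axis), coloured by subunit; the line marks equality. Most members lie just above the line, Rps15 is at the top right with 1531 CPM per kb in the H2AZ cKO library, against 1179 in the control library, and Rps3a3 stands far above the line with 98.9 in the H2AZ cKO library, against 1.67 in the control library.

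At the low end, Rpl37rt had 3.12 CPM per kb in the H2AZ cKO library, against 5.28 in the control library, and Rpl6l had 0.527 in the H2AZ cKO library, against 0.382 in the control library. Rpl24, a standard large subunit protein, had only 76 counts in the H2AZ cKO library, against 71 in the control library, which is 12.9 CPM per kb in the H2AZ cKO library and 11.6 CPM per kb in the control library. This gene overlaps Gm28037 on the same strand, and the sources do not say how reads in both genes were counted, so its level is uncertain. Rps4l had 46.7 CPM per kb in the H2AZ cKO library, against 44.3 in the control library, and Rpl22l1 had 64.2 in the H2AZ cKO library, against 50.2 in the control library.

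Within the family, the ratio was only loosely tied to other properties. Over the 76 standard members with at least 1000 summed counts, the log2 ratio had a Spearman rho of 0.35 with GC content, -0.13 with transcript length, 0.09 with mean CPM, 0.28 with CPM per kb and -0.12 with the share of windows found in other genes; these are descriptions across genes of the same libraries. The 32 members whose introns host a small RNA had a median log2 ratio of 0.21, and the 45 that host none had 0.24. The 18 that overlap an exon on the other strand had 0.24, and the other 59 had 0.21.

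Promoter sequences from RefSeq (GRCm38.p6) were matched for 62 of the 85 members, 57 of them in the standard set. Where a gene had several entries, members used the one nearest the deposited gene start. For all promoters, the first entry of each gene by coordinate was used, so the shares below rest on unlike choices of start. CTTT, the core of a pyrimidine tract, occurred within 10 bases of the annotated start on the gene strand in 16 of 57 members (28.1%) and in 9.37% of 27025 promoters; on the other strand the shares were 5.26% and 8.94%. The longer CTTTC, which contains CTTT, occurred there in 22.8% of members and 3.11% of all promoters. CCGGAAG, a core bound by ETS-family factors such as GABP, occurred on either strand of the 300 bases in 23 members (40.4%) and in 9.08% of all promoters, and TATAAA in 8.77% of members and 14.1% of all. In no member did a CTTT match near the start overlap a CCGGAAG match.

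Start windows, 30 bases before and 20 from the start on, are shown for the 4 members with the highest and the 4 with the lowest ratio among those with an entry, so that both ends of the family can be compared. On GRCm38.p6 they are chr2:180257349-180257398 (plus strand) for Rps21, chr7:24884562-24884611 (plus) for Rps19, chr10:80292401-80292450 (plus) for Rps15, chr7:141447621-141447670 (plus) for Rplp2, chr3:86142649-86142698 (minus) for Rps3a1, chr3:90213629-90213678 (minus) for Rps27, chr11:101442215-101442264 (plus) for Rpl27 and chrX:134585624-134585673 (plus) for Rpl36a. Capitals mark CTTT within 10 bases of the start and CCGGAAG.
Rps21: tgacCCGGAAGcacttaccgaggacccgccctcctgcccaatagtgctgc
Rps19: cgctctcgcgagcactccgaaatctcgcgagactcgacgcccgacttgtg
Rps15: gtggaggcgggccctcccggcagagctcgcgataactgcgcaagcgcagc
Rplp2: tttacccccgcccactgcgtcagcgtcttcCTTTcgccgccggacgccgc
Rps3a1: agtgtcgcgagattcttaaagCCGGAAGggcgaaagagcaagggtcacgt
Rps27: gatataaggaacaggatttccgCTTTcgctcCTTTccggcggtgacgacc
Rpl27: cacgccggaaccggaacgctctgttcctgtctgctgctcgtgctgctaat
Rpl36a: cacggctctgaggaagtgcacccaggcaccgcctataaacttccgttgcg

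Of the higher genes, Rps21 holds CCGGAAG and Rplp2 holds CTTT; of the lower, Rps3a1 holds CCGGAAG and Rps27 holds CTTT. The windows of Rps19, Rps15, Rpl27 and Rpl36a hold neither. The annotated start lay 221 bases from the deposited gene start for Rps19 and 281 bases for Rplp2, but at most 53 bases for the other windows. For Rps19 and Rplp2 the start is therefore less certain. The 16 members with CTTT near the start had a median log2 ratio of 0.25 and the 41 without it 0.21. A match is a description of these letters and not a site of binding.

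Ribosomal proteins that the symbol rule does not cover were higher as well. Fau, which encodes a small subunit protein fused to a ubiquitin-like domain, had 2118 counts in the H2AZ cKO library, against 1765 in the control library (1.24, 1.16 to 1.32). Rack1, a scaffold on the small subunit, had 8765 counts in the H2AZ cKO library, against 8105 in the control library (1.12, 1.09 to 1.15).

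Mitochondrial ribosomal proteins, which serve the separate ribosome of that organelle, had a smaller median log2 ratio, 0.11, which became 0.037 after removal of the trend. Of 77 tested genes, 61 lay above 0, where 51% of all tested genes did. Of the 77, 12 reached 1.2-fold higher and 0 reached 1.2-fold lower, where 11.4% and 13.4% of all genes did. With the trend removed, 45 of the 77 lay above 0, where 50.5% of all genes did. The counts of the mitochondrial list summed to 31774 in the H2AZ cKO library, against 30253 in the control library. The largest was Mrps24, with 506 counts in the H2AZ cKO library, against 365 in the control library (1.43, 1.25 to 1.65). Mrpl54 followed with 409 counts in the H2AZ cKO library, against 295 in the control library (1.43, 1.23 to 1.67), and Mrps31 with 246 in the H2AZ cKO library, against 179 in the control library (1.42, 1.17 to 1.73).

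Elongation factors and other mRNAs known for a 5′ TOP tract had a median of 0.15. Of 22, 21 lay above 0 and 1 reached 1.2-fold. Eef1a1, the main elongation factor, had 42606 counts in the H2AZ cKO library, against 38012 in the control library (1.16, 1.14 to 1.18). The X-linked initiation factor Eif2s3x, the gene past 1.2-fold, had 2341 counts in the H2AZ cKO library, against 1899 in the control library, a ratio of 1.28. The sex difference of the libraries stands beside this ratio, and its part was not tested. After removal of the trend, the median of this list was 0.025.

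Before removal of the trend, lists of genes that use and assemble ribosomes had medians nearer to 0 than the mitochondrial and TOP lists. Among 28 initiation factors, 22 lay above 0, with a median of 0.08 (0.031 with the trend removed) and none past 1.2-fold; Eif1, which helps select the start codon, had 2555 counts in the H2AZ cKO library, against 2223 in the control library (1.19, 1.12 to 1.26). Among 48 assembly factors, 36 lay above 0 and 3 reached 1.2-fold, and the median was 0.10 (0.062 with the trend removed). Wdr12, a large subunit assembly factor, had 338 counts in the H2AZ cKO library, against 265 in the control library (1.32, 1.12 to 1.56). Of 14 RNA polymerase I genes, which transcribe the ribosomal RNA, 12 lay above 0, with a median of 0.07 and no interval wholly to either side of 1. With the trend removed their median was 0.062. The assembly and RNA polymerase I medians then lay above the 0.037 of the mitochondrial list and the 0.025 of the TOP list.

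Noncoding hosts of small nucleolar RNAs, whose spliced RNAs also begin with a TOP tract, lay mostly on the other side of 0. Of 9 tested, 2 lay above 0 and 7 below, with a median of -0.03, which became -0.15 after removal of the trend. Gas5 had 2059 counts in the H2AZ cKO library, against 2132 in the control library (0.999, 0.940 to 1.06). Snhg12 had 176 counts in the H2AZ cKO library, against 231 in the control library (0.788, 0.644 to 0.963), and Snhg8 had 111 in the H2AZ cKO library, against 143 in the control library (0.803, 0.621 to 1.04). Snhg15 went the other way, with 61 counts in the H2AZ cKO library, against 51 in the control library (1.24, 0.839 to 1.83), and its wide interval includes 1.

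Regulators were mixed. Of 17 mTOR and Myc genes, 7 lay above 0 and 10 below, with a median of -0.03 (-0.018 with the trend removed). Mycn, a transcription factor that drives ribosomal genes in progenitors, had 1321 counts in the H2AZ cKO library, against 1061 in the control library (1.29, 1.19 to 1.40), and Myc had 355 in the H2AZ cKO library, against 294 in the control library (1.25, 1.07 to 1.46). Rptor, the substrate-binding subunit of mTOR complex 1, had 522 counts in the H2AZ cKO library, against 665 in the control library (0.812, 0.723 to 0.912). Tsc1, an inhibitor of that complex, had 572 counts in the H2AZ cKO library, against 718 in the control library (0.824, 0.737 to 0.921).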

How the data were processed

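RNA-seq libraries used 2 ug of total RNA, per the labels' protocols. Bowtie2 2.2.3, TopHat2 2.0.12, HTSeq 0.6.0 and the build mm9 appear in the submitters' processing notes without role or order; 59 of 85 member positions equal those of GENCODE M21 on GRCm38. Strand use and the handling of multiply matching reads were not stated. The authors deposited whole-number counts per gene, CPM that equal these counts over 8842436 (H2AZ cKO) and 8894180 (floxed control) reads, a fold ratio of the CPM, its log2, and p-values from an unnamed test. All deposited CPM came out as whole reads within 0.01, with a count of 0 written as 0.5 read. Per the file headers the control column is called WT; it was read as the floxed group, since no further genotype is labelled.

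Symbols were matched for 19112 of 19202 identifiers. TMM factors (0.986 for the H2AZ cKO, 1.01 for the floxed control) came from edgeR 4.0.16 and alternative size factors from DESeq2 1.42.0 in R 4.3.3; further steps used Python 3.11.15, numpy 2.4.6, pandas 2.3.3, scipy 1.17.1, matplotlib 3.10.9 and BLAST 2.17.0. Log2 ratios used a pseudocount of 1 CPM and a floor of 1 CPM in the higher library. A count of 0 allows up to 3 counts, or 0.344 CPM (H2AZ cKO) and 0.333 CPM (floxed control). Without molecular identifiers reads are not independent molecules, and intervals and floors cover counting error only. With 1 column per genotype no test was run and no p-value computed. Transcript length and GC content are those of the shortest top-ranked principal transcript in GENCODE M21. The scripts were tested on simulated data. Members with the 8 highest and 8 lowest ratios, the 5 highest and 5 lowest levels per length, all genes of short lists and up to 4 genes of each other list were named by rule; Rps24, Gas5, the genes listed without values, and those of the copy search were named after their values were seen. Some genes that the rule names are not reported here. The members and lists were chosen with earlier results of these data known. Alternatives were other pseudocounts, floors, scalings and sizes, removal of the trend with length, GC content and level, leaving out X-linked genes or retrocopies and paralogs, and adding pseudogenes to their gene.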

Additional observations from a re-analysis of the deposited data

How the results depend on the processing

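The members' median log2 ratio of 0.22 kept its sign under all alternatives run, at 0.18 with total counts, 0.20 with DESeq2 size factors and 0.081 after removal of the trend with length, GC content and level. The 24 members at least 1.2-fold higher became 15 with total count scaling and with the authors' CPM, 5 with the trend removed and 1 at 1.5-fold, and 67 had an interval above 1. The 1 member at least 1.2-fold lower became 0 with a pseudocount of 5 CPM, a floor of 5 CPM, retrocopies and paralogs left out or a size of 1.5-fold; 3 with the trend removed (Rpl37rt, Rps3a1 and Rps27); and 2 by interval. With the trend removed, the TOP-message median was 0.025. Of 766 single-gene values under alternatives, 715 stayed inside the gene's counting interval, 50 moved out of it and 1 changed sign from a value whose interval excluded 0: Rps3a1, at 0.13 when near-identical copies, an alternative chosen after seeing the data, were added. Of the 50 that moved, 41 did so with the trend removed, where only 45 stayed inside. Single-gene ratios thus depended far more on the trend than on the other alternatives. The causes were not tested. The ratio of count shares has no value under other pseudocounts, floors, scalings or trend removal. No paired analysis was possible because each genotype has 1 column. With 1 column of counts per genotype, differences between embryos or preparations cannot be told apart from genotype. Genes under about 100 counts, such as Rpl24 and Rpl37rt, have wide intervals.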
